A study of Homo sapiens with 8 samples.

Results

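The hypoxia response genes examined here are HIF1A, which encodes the oxygen-regulated subunit of the transcription factor HIF-1, and genes that HIF-1 is known to drive. They were taken as the table rows carrying a member's symbol alone, and 8 of 10 planned members had such a row: HIF1A, EGLN3, VEGFA, ADM, NDRG1, DDIT4, ANKRD37 and PDK1. CA9 and BNIP3 were not analysed here, since BNIP3 shares its row with a pseudogene symbol and CA9 was without a row. The 8 genes are part of 22109 genes tested. Affymetrix Human Gene 2.1 ST arrays had measured MDA-MB-231 cells, an established triple-negative breast cancer line grown from a pleural effusion, 24 h after treatment. The control group of 3 samples is labelled as untreated, and no vehicle-treated control is named in the labels although the extract stock was made in ethanol. The titles of the low group (3 samples) and the high group (2 samples) name wild yam, Dioscorea villosa, as the source of a root extract, and the treatment protocol gives its doses as 15 and 30 µg/mL. For the low group the source name is instead an extract of Boswellia serrata (128 µg/mL). For the high group it is 3-O-acetyl-β-boswellic acid (46 µg/mL), so what the cells received is unsettled and "low" and "high" serve here as group names. All samples shared culture in high-glucose medium (4500 mg/L) with 7% serum under 95% air and 5% CO2, so no group was labelled as grown at low oxygen. The labels do not say that replicates were separate cultures, and p-values then measure only the spread between these samples.

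In cells with enough oxygen, prolyl hydroxylases of the EGLN family mark the HIF-1α protein for recognition by VHL and destruction, and HIF1AN blocks its transactivating domain. When oxygen falls, or when the hydroxylases lack iron or cofactor, HIF-1α escapes, pairs with ARNT and binds hypoxia response elements with the core letters ACGTG or GCGTG. Since this control acts on the protein, the level of HIF1A messenger RNA does not report its activity. Several targets also answer to other stress pathways, DDIT4 and VEGFA to amino acid and endoplasmic reticulum stress and NDRG1 to metals and DNA damage.

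The core letters are shown in the promoters of 4 members whose arrays of at least 1 treated group lay wholly above the controls, as a view of where this factor could bind. The windows are the 250 bases before a RefSeq start on GRCh38.p14, read 5′ to 3′ on the gene's strand, with ACGTG or GCGTG on either strand in capitals (CACGT and CACGC where the match is on the other strand). All 4 genes lie on the plus strand, and the windows are chr4:185396591-185396840, chr10:72273674-72273923, chr2:172555840-172556089 and chr11:10304823-10305072.
ANKRD37: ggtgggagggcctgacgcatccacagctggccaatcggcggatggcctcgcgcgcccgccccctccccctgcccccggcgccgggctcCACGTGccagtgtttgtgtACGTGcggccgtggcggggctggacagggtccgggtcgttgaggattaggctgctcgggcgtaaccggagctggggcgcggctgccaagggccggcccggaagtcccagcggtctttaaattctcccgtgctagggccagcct
DDIT4: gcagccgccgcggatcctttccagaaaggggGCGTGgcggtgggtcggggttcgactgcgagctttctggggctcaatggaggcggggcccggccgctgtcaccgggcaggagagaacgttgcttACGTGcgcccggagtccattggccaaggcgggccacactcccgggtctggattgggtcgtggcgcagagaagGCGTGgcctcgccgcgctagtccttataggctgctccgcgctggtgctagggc
PDK1: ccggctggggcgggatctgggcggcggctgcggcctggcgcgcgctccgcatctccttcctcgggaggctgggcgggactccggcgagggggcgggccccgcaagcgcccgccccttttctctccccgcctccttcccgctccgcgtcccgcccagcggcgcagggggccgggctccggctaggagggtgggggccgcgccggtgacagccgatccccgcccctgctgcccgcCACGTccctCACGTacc
ADM: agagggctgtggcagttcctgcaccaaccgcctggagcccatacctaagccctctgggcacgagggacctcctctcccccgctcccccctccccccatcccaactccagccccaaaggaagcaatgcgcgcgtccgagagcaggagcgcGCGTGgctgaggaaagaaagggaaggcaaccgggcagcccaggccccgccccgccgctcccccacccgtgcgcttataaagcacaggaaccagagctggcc

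ANKRD37 held ACGTG 3 times, of which 2 overlap on opposite strands in 1 palindrome CACGTG, 157 to 162 bases before the start. DDIT4 held ACGTG once, 121 to 125 bases before the start, and GCGTG 2 times. PDK1 held ACGTG 2 times on the other strand within 17 bases of this start, and its window at a second start held neither. ADM held a single GCGTG. HIF1A held GCGTG once at 1 of its 2 starts, and EGLN3 held neither. The RefSeq table held 8 windows for 6 of the 8 members, and 5 of these windows held at least 1 match, against 43.2% of all 35116 windows of this length. Among all windows, 18.5% held ACGTG and 32.2% held GCGTG, and a window can hold both. NDRG1 and VEGFA had no window in this table. These are letters in a window and not sites shown to be bound.

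The arrays differed in level before any comparison. The 75th percentile of the log2 value over genes was 4.54 on low 3 and on high 2, 4.73 on control 3 and 4.80 to 4.94 on the other 5 arrays. Low 3 was the lowest low array for 7 of 8 members and for 60.1% of all genes, and high 2 was below high 1 for 7 of 8 members and for 64.2% of all genes. Control 3 was the lowest control for 6 of 8 members, against 46.9% of all genes. The part of these levels in the results was not tested beyond the alternatives named. Markers of the line were present, from a mean log2 value of 4.85 for S100A4 to 10.1 for MSN over 6 of 6 genes, and 4 of 5 luminal genes had means under 4, with EPCAM at 4.92. Endothelial, fibroblast and adipocyte markers all had means under 4, and among leukocyte markers CD68 stood at 8.14 while PTPRC stood at 1.13. The fibroblast gene COL1A1 rose at the low dose (0.76 ± 0.16 SE, adjusted p = 0.0262), and the mean over that list's 3 genes ran from 2.08 to 2.25 in controls from 2.16 to 2.34 in low arrays and from 1.98 to 2.09 in high arrays, with DCN at 1.20. Their part in the results was not tested.

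At the low dose NDRG1 rose 2.21-fold, and it was the single member that passed. At the high dose ADM, which encodes the vasodilator peptide adrenomedullin, rose 1.86-fold and was again the single member that passed. VEGFA, the angiogenic growth factor gene, lay above every control on all 5 treated arrays without passing in either comparison. HIF1A, in the brighter of its 2 rows, differed from controls by 0.07 ± 0.14 (SE, log2) at the low and by -0.03 ± 0.16 at the high dose. A gene passed at an adjusted p under 0.05 (limma, Benjamini-Hochberg over all genes), which 1.19% of all genes did as higher and 1.81% as lower at the low dose, and 0.425% and 0.389% at the high dose. One higher call among 8 members in each comparison is to be read against those shares. The members were chosen with earlier results of these data known, so such counts are a description and not a test. An unadjusted p under 0.05 was reached by 5 members at the low and 4 at the high dose, all higher. Of all genes, 5.38% were higher and 8.77% lower at this level at the low dose, 3.03% and 11.4% at the high dose, and 2.56% and 6.10% for high against low. In 6 of 8 members the low arrays lay wholly above the controls, and in EGLN3 wholly below, where 7.03% and 13% of all genes did so. For the high arrays the counts were 4 above and 1 below, against 7.07% and 22.9% of all genes. The log2 change was above 0 in 7 members at the low dose (42.6% of all genes) and in 6 at the high dose (32.6%). In bulk RNA a change in level per cell and a change in the share of cells expressing a gene cannot be told apart.

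**Figure D1:**
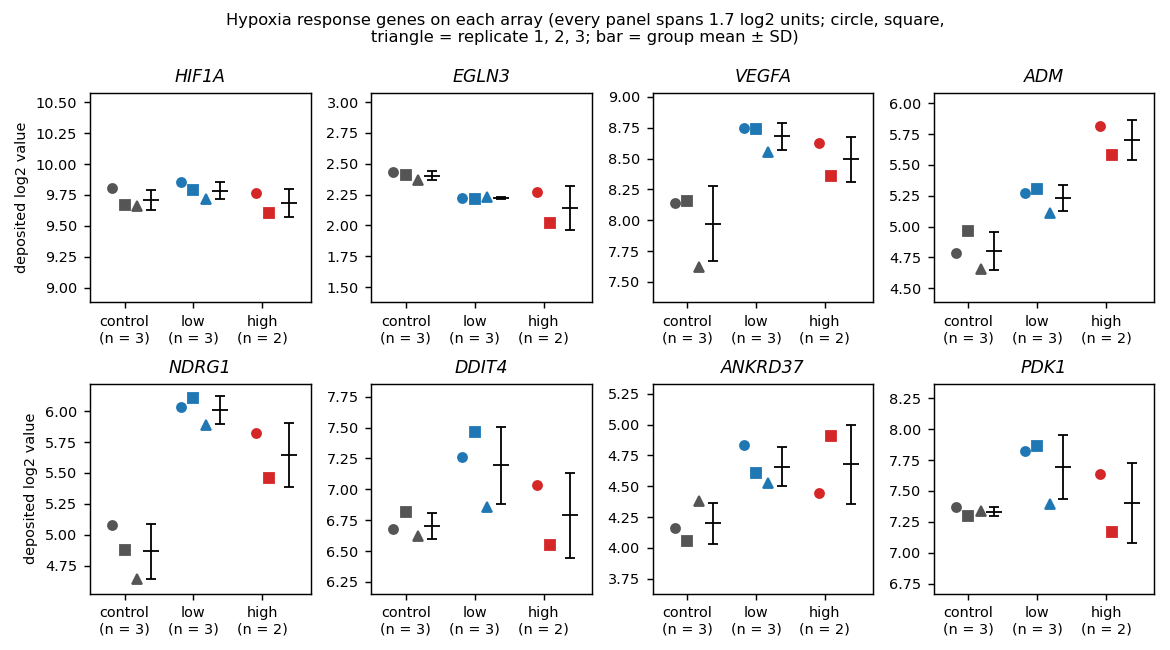
Deposited log2 values of the 8 hypoxia response genes on each of 8 arrays, by group (control and low, n = 3; high, n = 2), with replicates 1, 2 and 3 as circle, square and triangle and the group mean ± SD as a bar; every panel spans the same number of log2 units. NDRG1, VEGFA, ADM and ANKRD37 lie wholly above the controls in both treated groups and EGLN3 wholly below, while the brighter HIF1A row overlaps in all groups.

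The brighter row of the transcription factor gene itself was level. In that row HIF1A had log2 values of 9.81, 9.67 and 9.66 in controls 1 to 3, 9.85, 9.79 and 9.72 in low 1 to 3, and 9.77 and 9.60 in high 1 and 2. The groups overlap throughout. The 95% interval of the change ran from -0.24 to 0.39 at the low dose and from -0.38 to 0.32 at the high dose, and its adjusted p was 0.897 and 0.960.

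HIF1A has a second row with its symbol alone, and this row ran differently. It stood at 5.56, 5.21 and 5.36 in the controls, at 5.39, 5.01 and 5.20 in the low arrays and at 4.54 and 4.62 in the high arrays. Both high arrays lay below all 6 others. The difference of high from control was -0.80 ± 0.18 (SE; adjusted p = 0.0788, not passed) and that of high from low was -0.62 ± 0.18 (adjusted p = 0.392). Of 13 alternative settings run on this row, 3 put high against control past the threshold (array weights at an adjusted p of 0.0445, the replicate block at 0.0350 and leaving out control 3 at 0.0431). With the mean of both rows, high against control was -0.41 and did not pass. Which transcripts or exons each row reads is not given in the sources used here, and the second row was singled out after its values were seen.

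**Figure D2:**
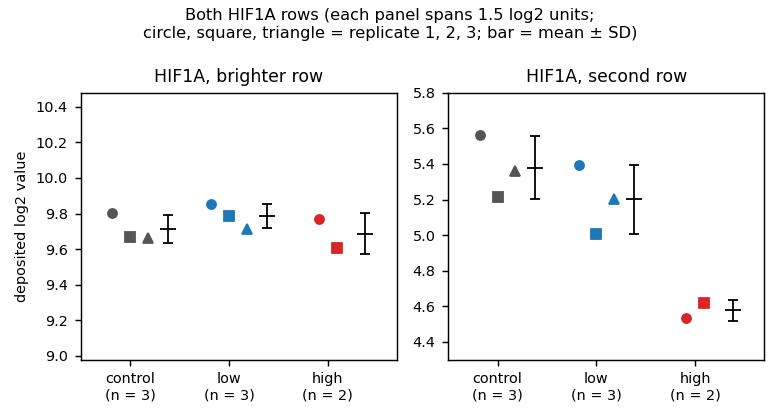
Deposited log2 values of both rows that carry HIF1A alone, by group, with the same symbols and bars (mean ± SD); both panels span the same number of log2 units. The brighter row overlaps across groups, and the second row is lowest on high 1 (4.54) and high 2 (4.62).

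Around HIF1A, none of 14 measured subunits and regulators passed in any of the 3 comparisons (limma). With no adjustment, 2 were higher and 1 lower at the low dose at a p under 0.05, against 5.38% and 8.77% of all genes. At the high dose none reached this level, against 3.03% higher and 11.4% lower of all genes. Its partner ARNT differed by 0.48 ± 0.18 at the low dose (adjusted p = 0.243) and by 0.18 ± 0.20 at the high dose. The coactivator EP300 had the smallest p of this list at the low dose, at 0.82 ± 0.22 (adjusted p = 0.0716). EP300 passed with the replicate block, both over all arrays (adjusted p = 0.0238) and over control and low arrays alone (0.0356). Of all genes, 2.18% and 1.32% passed as higher at the low dose under these blocks. CUL2 and ELOC, parts of the ubiquitin ligase that carries VHL, stood at -0.37 ± 0.15 and -0.42 ± 0.21 at the low dose in the reported fit. EPAS1, which encodes the related HIF-2α, differed from controls by 0.40 ± 0.19 at the low and -0.19 ± 0.22 at the high dose, and high from low by -0.59 ± 0.22 (adjusted p = 0.497). VHL (0.21 ± 0.16 and 0.04 ± 0.18), EGLN1, the main HIF prolyl hydroxylase (-0.17 ± 0.20 and -0.08 ± 0.22), and the asparaginyl hydroxylase HIF1AN (0.02 ± 0.22 and 0.09 ± 0.24) did not pass at the low or the high dose, with adjusted p of 0.640 or more. EGLN2 was not analysed here.

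EGLN3 encodes the hydroxylase that HIF itself induces as a brake. Its values were 2.43, 2.41 and 2.36 in controls, 2.22, 2.21 and 2.23 in low arrays and 2.27 and 2.02 in high arrays. Every treated array lay below every control, which held for no other member, and the changes did not pass: -0.18 ± 0.14 at the low dose (adjusted p = 0.667) and -0.26 ± 0.16 at the high dose (adjusted p = 0.482). The high-dose value was -0.14 without high 2. A mean log2 value under 4 marks this gene as dim, and no background measure was at hand to say whether it was expressed.

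Among the secreted factors VEGFA had log2 values of 8.14, 8.15 and 7.62 in controls, 8.74, 8.74 and 8.56 in low arrays and 8.62 and 8.36 in high arrays. The lowest treated array was above the highest control, and control 3 lay well below the other controls. The change was 0.71 ± 0.18 at the low dose, a 1.63-fold difference (adjusted p = 0.0668), and 0.52 ± 0.20 at the high dose (adjusted p = 0.272; 0.34 without control 3). With the replicate number as a block over all arrays VEGFA passed at the low dose (adjusted p = 0.0274), and with the block over control and low arrays alone it did not (0.0572). Without control 3 the low-dose change was 0.53 ± 0.16 (adjusted p = 0.131).

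ADM was ordered by group. It had 4.78, 4.96 and 4.66 in controls, 5.27, 5.31 and 5.11 in low arrays and 5.81 and 5.58 in high arrays. No group overlapped another, and the high arrays were the highest. The change was 0.43 ± 0.15 at the low dose (adjusted p = 0.214) and 0.90 ± 0.17 at the high dose (adjusted p = 0.0438). High exceeded low by 0.47 ± 0.17, with a 95% interval from 0.09 to 0.85 and an adjusted p of 0.497, so this step did not pass. The high-dose call lay close to the threshold and ended under 8 of 18 alternatives. Some of the 18 left a single high array, which was then assumed to vary like the other groups. Leaving out 1 array gave an adjusted p of 0.148 (control 1), 0.0987 (control 2), 0.0869 (low 1), 0.0922 (low 2), 0.191 (high 1) and 0.179 (high 2).

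The listed receptors and relatives of the planned members, secreted or not, did not pass. Among 24 measured genes of that list, none passed in any comparison (limma). With no adjustment a p under 0.05 was reached by 1 gene, PDK3, as higher at the low dose and by 2 as lower at the high dose. Of all genes, 5.38% were higher at the low dose and 11.4% lower at the high dose at this level. The VEGF co-receptor NRP2 stood at -0.53 ± 0.20 (adjusted p = 0.252) at the high dose, and RAMP1, a partner of the calcitonin-family receptors, at -0.65 ± 0.23 (adjusted p = 0.231). RAMP1 passed as lower with the replicate block (adjusted p = 0.0479), as 1 of 24 genes, where 4.66% of all genes passed as lower. NRP1, the other VEGF co-receptor of the list, differed by -0.21 ± 0.16 at the low dose (adjusted p = 0.653).

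NDRG1 encodes a cytoplasmic protein induced by hypoxia, iron chelation and differentiation. Its values were 5.08, 4.88 and 4.64 in controls, 6.04, 6.11 and 5.89 in low arrays and 5.83 and 5.46 in high arrays. All treated arrays exceeded all controls, and both high arrays lay below the low arrays. The low-dose rise was 1.15 ± 0.17 (95% interval 0.77 to 1.53; adjusted p = 0.00559), and it passed under each of 19 alternatives, where it ran from 1.03 to 1.25. At the high dose the difference was 0.78 ± 0.19 (adjusted p = 0.103). It passed with quantile normalization and with array medians subtracted, and under no other alternative that kept both high arrays. The fit without control 3, low 3 and high 2 left a single high array and is not counted here. High minus low was -0.37 ± 0.19, with an interval from -0.79 to 0.06 (adjusted p = 0.619), and -0.18 without high 2. Its relative NDRG3 stood at -0.33 ± 0.21 at the low dose (adjusted p = 0.571).

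DDIT4, also called REDD1, restrains the growth kinase complex mTORC1. It had 6.68, 6.82 and 6.62 in controls, 7.26, 7.46 and 6.86 in low arrays and 7.03 and 6.55 in high arrays. The low arrays lay above the controls, low 3 by a narrow margin, and the high arrays fell on either side of them. The changes were 0.49 ± 0.20 (adjusted p = 0.272) and 0.08 ± 0.22 (adjusted p = 0.902). Leaving out high 1 or high 2 put the high-dose value at -0.16 or 0.33. PDK1, the kinase that closes the pyruvate dehydrogenase gate into mitochondria, had 7.37, 7.29 and 7.34 in controls, 7.82, 7.86 and 7.39 in low arrays and 7.63 and 7.17 in high arrays. It shared the DDIT4 pattern, in which low 3 and high 2 stood low within their groups. The PDK1 changes were 0.36 ± 0.18 (adjusted p = 0.419) and 0.07 ± 0.20 (adjusted p = 0.913), the latter -0.16 without high 1 and 0.30 without high 2. Of its relatives, PDK3 stood at 0.62 ± 0.25 at the low dose (adjusted p = 0.270) and PDK4 at 0.32 ± 0.23 at the high dose (adjusted p = 0.564).

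ANKRD37 encodes a small ankyrin repeat protein. Its values were 4.16, 4.05 and 4.38 in controls, 4.84, 4.61 and 4.53 in low arrays and 4.45 and 4.90 in high arrays. Every treated array was above every control, with high 1 and control 3 nearly touching. The changes were 0.46 ± 0.18 at the low dose (adjusted p = 0.247) and 0.48 ± 0.20 at the high dose (adjusted p = 0.295), where the value was 0.25 without high 2. High 2 exceeded high 1 here, unlike in the other 7 members.

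**Figure D3:**
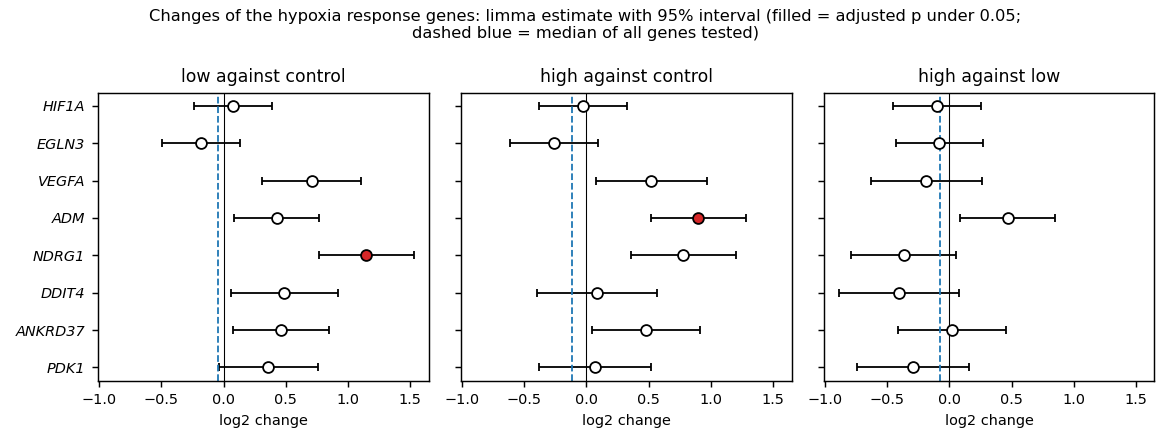
Log2 changes of the 8 genes from the limma fit with 95% intervals for low against control, high against control and high against low; filled points passed at an adjusted p under 0.05, and the dashed line is the median over all genes tested (-0.04, -0.12 and -0.07). NDRG1 at the low dose and ADM at the high dose are the filled points.

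Between the doses no member passed (limma), where 0.00452% of all genes did so as higher and 0% as lower. ADM alone reached an unadjusted p under 0.05. The high arrays lay wholly above the low arrays in ADM and wholly below them in NDRG1, against 8.77% and 16.7% of all genes. High minus low was above 0 in 2 members, against 38.4% of all genes. Both treated groups were compared with the same 3 controls, so their changes are given side by side and no overlap between them is drawn.

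The members also differed in how they varied from array to array. Pearson's r over the 8 arrays, which share group and array level, was 0.96 between NDRG1 and VEGFA and 0.96 between PDK1 and DDIT4. ANKRD37 and EGLN3 ran oppositely at -0.91. The closest genes were sought among coding and long non-coding genes, leaving out small RNAs and provisional symbols such as LOC, LINC and KIAA. Those closest to NDRG1 over the 8 arrays were ABL2 (r = 0.994), a tyrosine kinase gene, ACSL1 (0.993), a fatty acid activating enzyme gene, and PLEKHM1 (0.992), a lysosomal adaptor gene. Those closest to ADM were the metallothionein gene MT1E (0.97), SEL1L3 (0.97) and the stress cytokine gene GDF15 (0.97). All had their highest means in the high group, as ADM did, which picking them by likeness to ADM all but fixes. ABL2 rose at the low dose by 1.55 ± 0.21 (adjusted p = 0.00377), and GDF15 rose at the high dose by 3.51 ± 0.22 (adjusted p = 5.03e-05). These correlations describe the arrays and carry no test.

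**Figure D4:**
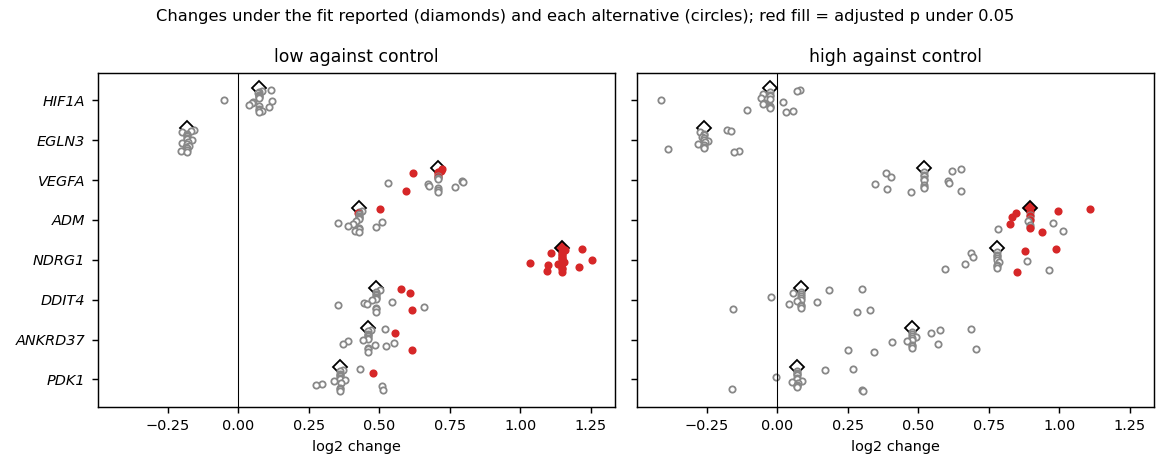
Log2 change of each gene at the low and at the high dose under the reported fit (diamond) and under each alternative setting (circle), with red fill where the adjusted p was under 0.05. NDRG1 is filled throughout at the low dose, and ADM at the high dose under the reported fit and 10 of 18 alternatives.

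Few of the other known HIF targets passed, while more were higher at the low dose before adjustment. Of 36 measured non-glycolytic targets 2 passed as higher and none as lower at the low dose (limma), against 1.19% and 1.81% of all genes. Their median change there was 0.25, against -0.04 over all genes. With no adjustment, 14 were higher and 1 lower there at a p under 0.05, against 5.38% and 8.77% of all genes. The low-dose change was above 0 in 30 of the 36, against 42.6% of all genes. This list and the glycolytic one were chosen with earlier results of these data known, so counts set beside all genes describe them and test nothing. BHLHE40, a clock-linked transcriptional repressor, had 7.36, 7.42 and 6.72 in controls and 8.54, 8.63 and 8.43 in low arrays. It rose by 1.37 ± 0.20 (adjusted p = 0.00476), a value that was 1.15 without control 3. WSB1, a ubiquitin ligase adaptor, had 6.62, 6.55 and 6.60 in controls and 7.48, 7.47 and 7.37 in low arrays, and rose by 0.85 ± 0.14 (adjusted p = 0.00808, and 0.0507 without low 2). At the high dose none of the 36 passed (limma). At an unadjusted p under 0.05, 6 were higher and 1 lower, against 3.03% and 11.4% of all genes. The list's median there was 0.07, against -0.12 over all genes. Leaving out 1 array moved that median: it was 0.0021 without control 3, -0.0089 without high 1, 0.17 without high 2, 0.13 without control 1 and 0.13 without control 2. BHLHE40 and WSB1 then stood at 0.97 ± 0.22 and 0.70 ± 0.16 (adjusted p = 0.0790 and 0.0719), and the chemokine receptor gene CXCR4 at -0.69 ± 0.17 (adjusted p = 0.1004). Without control 3, BHLHE40 and WSB1 passed as higher and CXCR4 and LOXL2 as lower, as 4 of the 36, where 1.13% of all genes passed as higher and 3.35% as lower. With the replicate block BHLHE40 (adjusted p = 0.0388), WSB1 (0.0412) and CXCR4 (0.0437) passed at the high dose and LOX at the low dose (0.0361, but 0.0969 with the block over control and low arrays alone). With the block over all arrays, 0.891% of all genes passed as higher and 4.66% as lower at the high dose, and 2.18% as higher at the low dose. Between the doses none passed, with 0 higher and 5 lower at an unadjusted p under 0.05 (limma), against 2.56% and 6.10% of all genes. The smallest p there belonged to PPFIA4 at -0.89 ± 0.21 (adjusted p = 0.307) and to LOX, a collagen cross-linking oxidase gene, at -1.03 ± 0.34 (adjusted p = 0.444, passed with the replicate block and without control 3). Of all genes, 0.896% with that block and 0.452% without control 3 passed as lower. On the higher side the smallest p belonged to INSIG2 at 0.37 ± 0.21 (adjusted p = 0.636) and MXI1 at 0.37 ± 0.22 (0.652).

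In the glycolytic list 1 of 19 genes passed as higher at each dose and none as lower (limma), against 1.19% and 0.425% of all genes as higher. With no adjustment, 6 were higher and 0 lower at the low dose at a p under 0.05, against 5.38% and 8.77% of all genes. At the high dose 2 were higher and 1 lower, against 3.03% and 11.4%. The change was above 0 in 16 of the 19 at the low dose (42.6% of all genes) and in 7 at the high dose (32.6%). SLC2A3, a high-affinity glucose transporter gene, had 4.29, 3.90 and 3.99 in controls, 5.93, 5.76 and 5.56 in low arrays and 5.44 and 5.40 in high arrays. The treated arrays stood more than 1 log2 unit above the controls, with the low arrays highest. It rose by 1.69 ± 0.17 at the low dose (3.23-fold, adjusted p = 0.000950) and by 1.36 ± 0.19 at the high dose (adjusted p = 0.00905, but 0.0915 without high 1 and 0.0909 without high 2). Its row may also read its near-identical relative SLC2A14. The list's median change was 0.22 at the low dose, or 0.05 without control 3, and -0.10 at the high dose, against medians over all genes of -0.04 and -0.12. The high-dose median was -0.24 without control 3, -0.22 without high 1, 0.022 without high 2, 0.0048 without control 1, 0.047 without control 2 and 0.084 with quantile normalization. ENO2, a glycolytic enolase gene, passed at the low dose with the replicate block (adjusted p = 0.0386, but 0.0676 over control and low arrays alone). With the block over all arrays 2.18% of all genes passed as higher there. High minus low had no call in this list (limma). At an unadjusted p under 0.05, 0 were higher and 2 lower, against 2.56% and 6.10% of all genes. The difference was above 0 in 0 of the 19 genes, against 38.4% of all genes, with a median of -0.31 against -0.07. The count differed by setting: 4 of 19 were above 0 with quantile normalization (median -0.19) and with array medians subtracted (median -0.23), and 2 were without high 2 (median -0.16). GPI, an enzyme of the second glycolytic step, stood at -0.69 ± 0.23 there (adjusted p = 0.444).

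**Figure D5:**
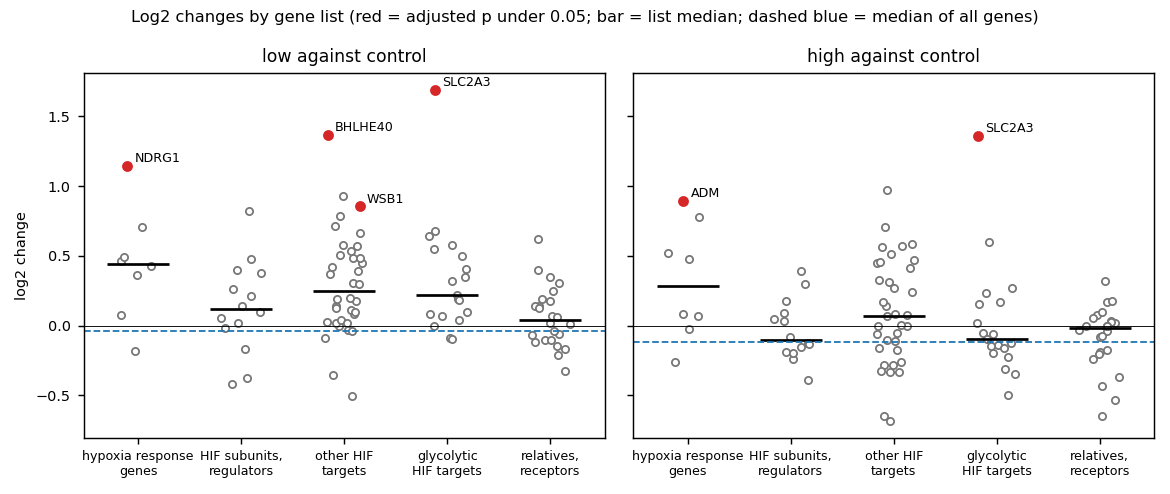
Log2 changes by gene list at the low and at the high dose (points are genes, red where the adjusted p was under 0.05, bar the list median, dashed line the median over all genes). The called genes are NDRG1, BHLHE40, WSB1 and SLC2A3 at the low dose and ADM and SLC2A3 at the high dose.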

How the data were processed

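Total RNA of 8 samples was measured on 1 array each. The deposited table holds log2 values made by the authors with the Transcriptome Analysis Console, per the submitters' processing notes. No source used here gives its version, summarization or normalization, and the log base was inferred from the range of the values (-0.00 to 12.10). Values were used as deposited. Precision is limited by how few arrays there are. Of 53617 rows, 23558 carried 1 gene symbol, 2155 several and 27904 were unnamed in the platform annotation supplied. For genes with several rows the row with the highest mean was kept, which left 22109 genes. No 2 arrays were identical.

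All 8 arrays entered 1 limma fit (version 3.58.1, R 4.3.3) that gave each group its own mean, with 5 residual and 6.0 prior degrees of freedom, and p-values were adjusted over all genes of each of 3 comparisons. The script was tested on simulated data. Named were all members, 5 regulators, the called genes of each list and the 3 genes closest to each called member. Where a list had no call, genes among those with the smallest p were named, though not in each direction of each comparison. Members and lists were chosen with earlier results of these data known. The reported fit held no block, and the replicate number served as a block in alternatives only. Deviations from the group means correlated at 0.10, 0.15 and 0.20 between control and low arrays of the same number. Control 1 with low 2 stood at 0.12 and control 2 with low 1 at 0.065. The other pairs of unlike number, each with control 3 or low 3, lay between -0.18 and -0.11. These values do not settle whether arrays 1 and 2 were paired by number. For high arrays the correlations with same-numbered controls were 0.09 and -0.05, and the block is uncertain there too.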

Additional observations from a re-analysis of the deposited data

How the results depend on the processing

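NDRG1 passed at the low dose under all 19 alternatives. The count of members that passed there, 1, became 4 with quantile normalization (NDRG1, VEGFA, ADM and DDIT4), 2 with array medians subtracted, with dim genes left out, with an intensity trend or with the replicate block, 6 with array weights and 4 without control 3, low 3 and high 2 together, and it stayed at 1 to 1 when 1 array was left out. Of all genes, 2.81% then passed as higher with quantile normalization, 1.7% with array medians subtracted, 2.18% with the replicate block, 4.35% with array weights and 3.06% without the 3 arrays. The count at the high dose, 1, became 2 with quantile normalization or with array medians subtracted and 0 with an intensity trend or only the 2 groups compared. It was 0 to 1 when 1 control or low array was left out. The shares of all genes were 1.48% with quantile normalization and 0.81% with array medians subtracted. For the low-dose counts with dim genes left out, where 7 members remained, and with an intensity trend the share of all genes was not counted. The replicate block ended or added no other member's call than that of VEGFA. Between the doses the count was 0 under every alternative run. The promoter count of 5 windows was the same over 300 bases. Signs turned only in changes that never passed. HIF1A at the low dose was -0.052 with the mean of its rows and -0.18 in its second row. At the high dose HIF1A was 0.080 with quantile normalization, 0.071 with array medians subtracted and 0.0295 without the 3 arrays, and ran from -0.11 to 0.055 when 1 array was left out (0.020 without control 1, 0.055 without high 2). With the replicate block PDK1 was -0.0036 and DDIT4 -0.022, and when 1 array was left out they ran from -0.16 to 0.30 and from -0.16 to 0.33, lowest without high 1. For high against low ANKRD37 was -0.0100 with array weights and -0.27 without the 3 arrays, and ran from -0.21 (without high 2) to 0.25, with -0.0069 without low 2 and -0.046 without low 3. EGLN3 was 0.0060 with array medians subtracted and 0.050 without the 3 arrays, and ran from -0.21 to 0.046 (without high 2). The cause of these shifts was not tested. Where 1 high array was left, it was assumed to vary like the other groups. Among the lists, other HIF targets at the low dose went from 2 called genes to 7 with quantile normalization, 13 with array weights and 9 without the 3 arrays, and glycolytic targets from 1 to 5, 5 and 3, while the share of all genes in either direction went from 3% to 5.33%, 9.29% and 5.78%. At the high dose other HIF targets went from 0 to 3 with quantile normalization and 4 with array weights, while that share went from 0.814% to 2.09% and 4.54%. Without the 3 arrays a single high array was left, so no high-dose count of members or lists is given there. Among the regulators ARNT and EP300 passed at the low dose under each of these 3 settings. The second HIF1A row was not run with dim genes left out, an intensity trend, robust variances or 2 groups alone. The second row and the block over control and low arrays were chosen after seeing the data.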
